A study of Mus musculus with 9 samples.

Results

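In the mouse ovary, 53 named genes were read at 3 FPKM or more in a single library, HBOT replicate 2, and stayed under 1 FPKM in each of the other 8 libraries. FPKM scales the fragments of a transcript by its length and by the size of the library, so it is a level per length. The 53 genes were chosen from the 22544 rows of the deposited table by those 2 limits. Assembled loci without a gene name, predicted genes with a Gm number and 11 named genes of the ovulatory response were left out by name. In all, 69 rows met the limits, 0.306% of the table. These were the 53 genes, 7 assembled loci, 1 predicted gene and 8 of the 11 named ovulatory genes (Areg, Ereg, Btc, Pgr, Ptgs2, Has2, Sult1e1 and Snap25). Since HBOT replicate 2 chose the genes, its values are described here without a test.

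Polyadenylated RNA of mouse ovary was sequenced in 9 libraries, 3 in each of 3 groups. The HBOT group received CTX combined with hyperbaric oxygen therapy, per the design text, the CTX group carries the usual abbreviation of the alkylating drug cyclophosphamide, and the NC group, whose labels name neither treatment, is the reference. The labels name no strain, age, dose, time or cycle stage, and do not say whether replicates were separate animals. Per library, the summed FPKM ran from 394046 to 420058. Depth is unknown, since no read counts can be had from these values. HBOT replicate 2 was the library that stood apart. It had 477 rows at 2 times the highest of the other 8 libraries or more, against 11 to 41 rows for any other library treated the same way.

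Ovulation starts with the surge of luteinizing hormone, which raises cyclic AMP in the mural granulosa cells of the mature follicle. These cells release EGF-like growth factors, and granulosa and cumulus cells then express the progesterone receptor, prostaglandin synthase 2, enzymes of the hyaluronan matrix around the oocyte, cytokines and proteases that open the follicle wall. Many of these genes are transient and close to silent at other stages of the cycle. Transcription factors of the CREB, AP-1, NR4A and C/EBP families act early in this response.

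The same limits applied to any other library chose far fewer rows. They gave 1 row each for HBOT replicates 1 and 3, 5, 1 and 4 rows for CTX replicates 1, 2 and 3, and 4, 3 and 2 rows for NC replicates 1, 2 and 3. Named genes among these were 10 in all. CTX replicate 1 held the fat-cell genes Adipoq, Cfd and Cidec with Ackr1 and Cyp2e1, and NC replicate 2 held Alb, the albumin gene of liver. In whole tissue, fewer cells of a type and less RNA per cell cannot be told apart.

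**Figure D1:**
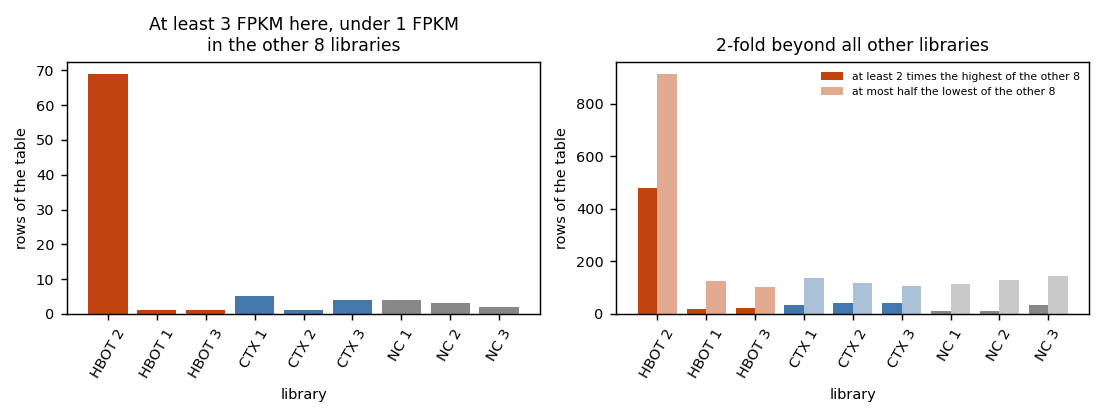
Left, rows of the table with at least 3 FPKM in the library on the x axis and under 1 FPKM in the other 8. Right, rows at least 2 times the highest (full colour) or at most 0.5 times the lowest (pale) of the other 8 libraries. Each bar is a count for 1 library, coloured by group; HBOT replicate 2 has 69, 477 and 913 rows.

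Promoter windows were at hand for 37 of the 53 genes, as 250 bases before to 50 after a transcription start in RefSeq (build GRCm38.p6). The 5 windows below are shown because they carry the AP-1 motif TGANTCA or the full cAMP response element, the letters discussed further on. Capitals mark these matches.
Nts, chr10:102490369-102490668, minus strand: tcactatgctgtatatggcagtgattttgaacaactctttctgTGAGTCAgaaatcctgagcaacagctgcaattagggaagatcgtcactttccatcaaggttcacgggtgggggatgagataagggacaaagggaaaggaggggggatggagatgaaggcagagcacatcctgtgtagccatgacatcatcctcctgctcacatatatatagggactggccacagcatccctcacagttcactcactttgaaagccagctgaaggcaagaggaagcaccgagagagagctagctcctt
Il11, chr7:4778092-4778391, minus strand: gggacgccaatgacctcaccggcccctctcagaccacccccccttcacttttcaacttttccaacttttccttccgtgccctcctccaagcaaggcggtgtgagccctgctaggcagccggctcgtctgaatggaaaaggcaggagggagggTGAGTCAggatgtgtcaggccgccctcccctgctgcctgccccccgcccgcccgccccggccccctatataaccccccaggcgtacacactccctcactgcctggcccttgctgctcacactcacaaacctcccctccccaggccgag
Serpinb2, chr1:107511173-107511472, plus strand: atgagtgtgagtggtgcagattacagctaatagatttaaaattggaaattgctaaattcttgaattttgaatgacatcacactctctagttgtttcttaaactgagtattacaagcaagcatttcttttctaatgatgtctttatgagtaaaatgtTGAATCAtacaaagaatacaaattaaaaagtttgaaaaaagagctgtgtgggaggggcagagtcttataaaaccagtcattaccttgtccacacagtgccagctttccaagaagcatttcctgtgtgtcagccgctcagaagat
Ripply1, chrX:139782304-139782603, minus strand: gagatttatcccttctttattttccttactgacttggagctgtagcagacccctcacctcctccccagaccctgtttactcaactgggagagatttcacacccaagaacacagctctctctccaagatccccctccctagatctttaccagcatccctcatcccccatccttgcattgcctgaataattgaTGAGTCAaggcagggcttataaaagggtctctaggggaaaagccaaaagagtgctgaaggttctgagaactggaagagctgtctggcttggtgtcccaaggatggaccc
Has1, chr17:17855139-17855438, minus strand: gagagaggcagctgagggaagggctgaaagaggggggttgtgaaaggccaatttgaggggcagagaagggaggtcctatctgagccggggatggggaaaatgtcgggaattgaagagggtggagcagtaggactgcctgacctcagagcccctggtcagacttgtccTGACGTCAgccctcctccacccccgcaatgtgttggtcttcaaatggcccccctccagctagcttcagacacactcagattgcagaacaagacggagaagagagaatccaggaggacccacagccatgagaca

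Neuropeptides and peptide hormones formed a group of 9 genes that included the highest level of all 53, that of Nts. Nts (ENSMUSG00000019890), the precursor of neurotensin, was at 105 FPKM in HBOT replicate 2. It was at 0.360 and 0.0686 FPKM in HBOT replicates 1 and 3, at 0.105, 0.206 and 0.242 FPKM in the CTX libraries and at 0.331, 0.307 and 0.459 FPKM in the NC libraries. The highest of the other 8 libraries was thus 229 times lower, and the other 2 HBOT libraries lay within the range of the CTX and NC libraries or below it. Npy (ENSMUSG00000029819), neuropeptide Y, was at 24.2 FPKM in HBOT replicate 2 and listed at 0 in all other 8 libraries, the sole one of the 53 genes to be so. Nmu, the precursor of neuromedin U, was at 28.2 FPKM in HBOT replicate 2, at 0.106 and 0.223 FPKM in the other HBOT libraries, at 0, 0 and 0.0912 FPKM in CTX and at 0, 0 and 0.240 FPKM in NC. It was thus near 0 in every group outside that library.

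The paired genes of calcitonin gene-related peptide were both in the set. Calcb was at 10.6 FPKM in HBOT replicate 2 against at most 0.156 FPKM elsewhere, and Calca, which also encodes calcitonin, was at 6.43 FPKM against at most 0.236 FPKM. Pnoc, the precursor of the opioid-related peptide nociceptin, was at 9.66 FPKM against at most 0.446 FPKM. Gcg, which encodes proglucagon, was at 8.09 FPKM in HBOT replicate 2 and at 0.179 and 0.123 FPKM in the other HBOT libraries. In the CTX libraries it was at 0, 0.0721 and 0 FPKM, and it was listed at 0 in the 3 NC libraries. Vgf, a neurosecretory protein precursor, was at 4.59 FPKM against at most 0.0348 FPKM. Gal, the galanin precursor, was at 6.95 FPKM and had the highest background of the 53 genes, 0.988 FPKM in CTX replicate 1.

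Other listed genes of vesicle release and neuropeptides went both ways. Of a list of 29 vesicle and neuropeptide genes, 23 reached 1 FPKM somewhere, 6 of them among the 53 genes. Over all rows of the table at that level, 3.37% were at 2 times the highest of the other 8 or more in HBOT replicate 2. Of the 16 listed genes neither among the 53 nor left out by name, 5 were, among them the neuropeptide precursors Adcyap1 (141 FPKM against at most 2.02 FPKM) and Tac1 (42.4 against at most 2.97 FPKM), the enkephalin precursor Penk (73.3 against at most 26.2 FPKM) and Kiss1, the kisspeptin precursor (1.68 against at most 0.173 FPKM). The vesicle proteins Rab3a and Stx1a were lower in HBOT replicate 2, at 4.58 FPKM against 15.6 to 29.3 FPKM and at 10.2 FPKM against 15.0 to 27.6 FPKM. Of the neuron and glia markers, Tubb3, a tubulin of neurons, was at 6.31 FPKM in HBOT replicate 2 and 5.62 to 11.3 FPKM in the others. The neurofilament genes Nefl and Nefm were each at 0.63 FPKM in HBOT replicate 2, while Nefl was listed at 0 in the other 8 libraries and Nefm reached at most 0.0279 FPKM. Sox10, a glial factor, was listed at 0 in HBOT replicate 2. The summed level of all 11 markers was 13.2 FPKM, against 13.2 to 23.0 FPKM. Their part in the result was not tested.

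**Figure D2:**
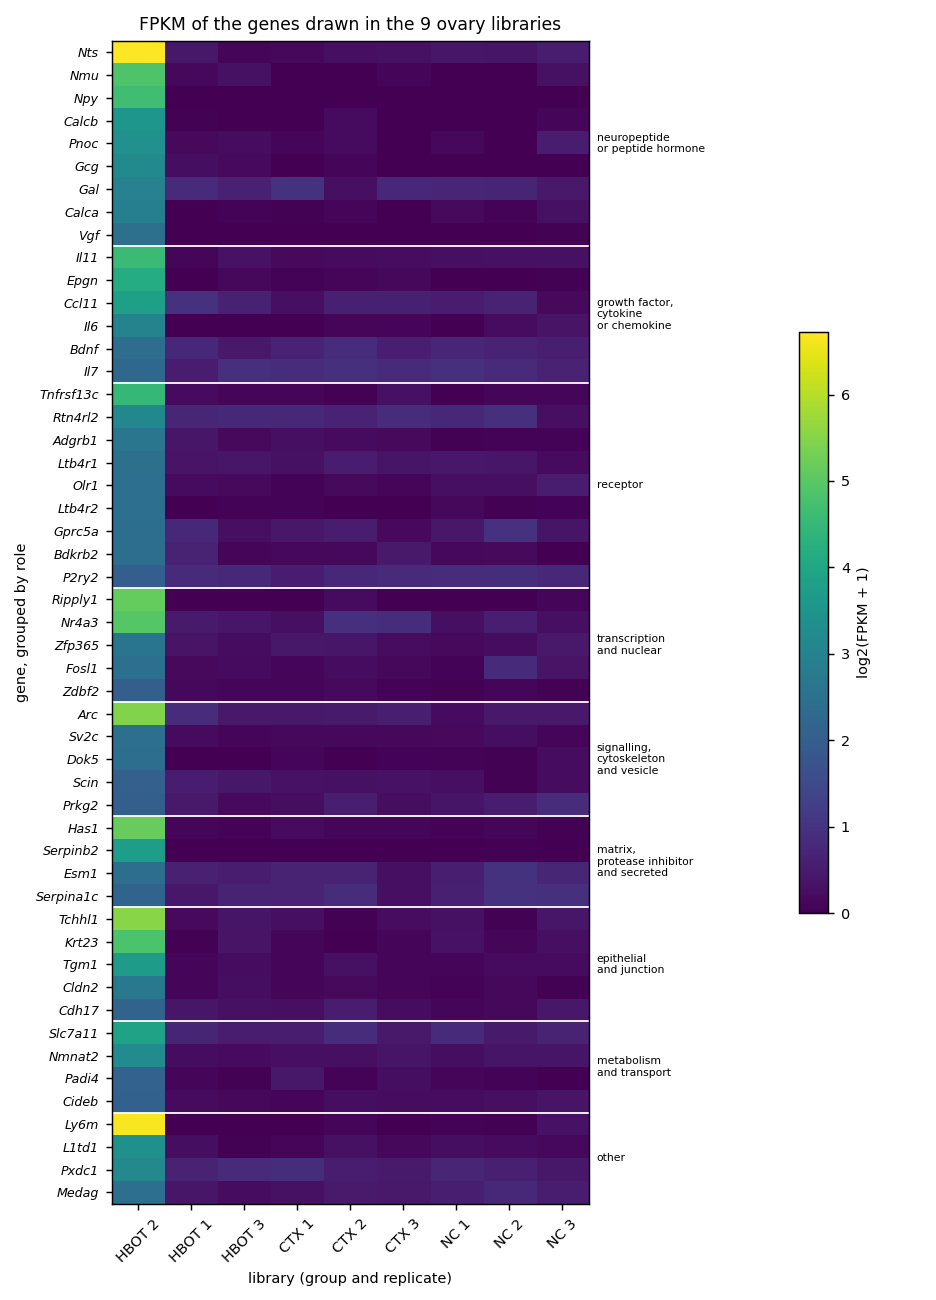
FPKM of the 53 genes except 2 that are not drawn (rows, grouped by role and sorted by level in HBOT replicate 2) in the 9 libraries (columns), as log2(FPKM + 1) in colour. The first column is the highest in every row, from 3.04 FPKM for P2ry2 to 105 FPKM for Nts, and no other cell reaches 1 FPKM, which is how the genes were chosen.

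Growth factors and cytokines gave 6 of the 53 genes. Il11 (ENSMUSG00000004371), a cytokine of the interleukin 6 family, was at 22.9 FPKM in HBOT replicate 2, at 0.0628 and 0.246 FPKM in HBOT replicates 1 and 3, at 0.120, 0.149 and 0.177 FPKM in CTX and at 0.207, 0.243 and 0.236 FPKM in NC. Interleukin 6 itself, a cumulus cell cytokine of ovulation, was at 7.08 FPKM (Il6) in HBOT replicate 2 and listed at 0 in both other HBOT libraries. Its CTX libraries were at 0, 0.0923 and 0.0712 FPKM and its NC libraries at 0, 0.159 and 0.271 FPKM. Outside HBOT replicate 2, the NC values of Il11 all lay above the CTX values, with HBOT replicate 1 below both groups and HBOT replicate 3 above. Il6 was nearest to 0 in HBOT. These values of Il11 and Il6 were at most 0.271 FPKM and depth is unknown, so no order of the groups is read from them.

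Epgn (ENSMUSG00000035020), which encodes epigen, a ligand of the EGF receptor, was at 16.9 FPKM in HBOT replicate 2 against at most 0.114 FPKM. On chromosome 5, with 0 table genes between them in GENCODE M21, it neighbours Ereg (361 FPKM in HBOT replicate 2), Areg (145 FPKM) and Btc (77.4 FPKM), 3 EGF-like ligands left out by name. The genes on either side of this run were not of that kind: Mthfd2l was at 15.1 FPKM in HBOT replicate 2 and 8.84 to 11.4 FPKM elsewhere, and Parm1 at 13.0 and 4.37 to 21.2 FPKM. Egfr, the shared receptor, was at 11.2 FPKM in HBOT replicate 2, within the 8.84 to 11.8 FPKM of the others. Bdnf, a neurotrophin, was at 4.27 FPKM against at most 0.808 FPKM, Ccl11, the eosinophil chemokine eotaxin, at 13.2 against at most 0.939 FPKM, and Il7, a lymphoid growth factor, at 3.81 against at most 0.916 FPKM.

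Receptors made up 9 of the 53 genes, mostly close to the lower limit. Tnfrsf13c, the receptor for the B cell survival factor BAFF, was the exception at 21.4 FPKM in HBOT replicate 2. It was at 0.136 and 0.0890 FPKM in the other HBOT libraries, at 0.0818, 0.0238 and 0.229 FPKM in CTX and at 0, 0.0848 and 0.0681 FPKM in NC. The B cell markers Ms4a1 and Cd79a were at 0.260 and 0.404 FPKM in the same library, against highest values of 0.535 and 0.454 FPKM in the others. Receptors for inflammatory mediators and nucleotides were the leukotriene B4 receptors Ltb4r1 (4.64 FPKM against at most 0.445 FPKM) and Ltb4r2 (4.49 against at most 0.101 FPKM), the bradykinin receptor Bdkrb2 (4.37 against at most 0.601 FPKM) and the nucleotide receptor P2ry2 (3.04 against at most 0.856 FPKM). The remaining 4 were Rtn4rl2 of the Nogo receptor family (7.80 FPKM), the adhesion receptor Adgrb1 (5.25 FPKM), the oxidized LDL receptor Olr1 (4.53 FPKM) and the orphan receptor Gprc5a (4.39 FPKM).

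Nuclear factors gave 6 genes. Nr4a3 (ENSMUSG00000028341), an orphan nuclear receptor induced early by gonadotropin, was at 30.2 FPKM in HBOT replicate 2 and at 0.390 and 0.320 FPKM in the other HBOT libraries. It was at 0.210, 0.868 and 0.837 FPKM in CTX and at 0.220, 0.471 and 0.213 FPKM in NC, so CTX replicates 2 and 3 had the highest values outside that library. Ripply1, a corepressor known from somite formation, was at 34.2 FPKM and listed at 0 in 6 of the other 8 libraries, the rest being CTX replicate 2 (0.149 FPKM) and NC replicate 3 (0.0948 FPKM). Fosl1, an AP-1 subunit, was at 4.54 FPKM against at most 0.781 FPKM, in NC replicate 2. Zfp365 was at 5.07 FPKM and the imprinted gene Zdbf2 at 3.12 FPKM.

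All 23 genes of a list of transcription factors induced by the gonadotropin surge reached 1 FPKM somewhere, 2 of them among the 53 genes. Of the 21 outside the 53, 16 were above all other libraries in HBOT replicate 2, as were 20.1% of all rows at that level, and 9 were at 2 times the highest of the other 8 libraries or more. Crem, a cyclic AMP responsive factor, was at 171 FPKM against 6.50 to 14.5 FPKM, Runx1, a core-binding factor, at 87.1 FPKM against 5.53 to 15.2 FPKM, and Egr3, a zinc finger factor, at 13.7 FPKM against 0.284 to 1.14 FPKM. Other genes of the list stayed within the range of the rest, among them Nrip1, a coregulator needed for ovulation in mice, at 15.0 FPKM and 13.3 to 19.2 FPKM, and the AP-1 subunit Jun at 33.7 FPKM and 14.4 to 40.5 FPKM.

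Genes of signalling, cytoskeleton and vesicles were led by Arc, an immediate early gene known from synaptic activity, at 42.6 FPKM in HBOT replicate 2. Its other HBOT libraries were at 0.819 and 0.374 FPKM, its CTX libraries at 0.368, 0.395 and 0.490 FPKM and its NC libraries at 0.139, 0.386 and 0.369 FPKM. HBOT replicate 1 was next highest, 52.1 times lower. The synaptic vesicle protein Sv2c was at 4.49 FPKM, the docking adaptor Dok5 at 4.39 FPKM, the actin-severing protein scinderin (Scin) at 3.22 FPKM and the cyclic GMP-dependent kinase Prkg2, a progesterone receptor target of mouse granulosa cells, at 3.08 FPKM. For Prkg2 the highest other value was 0.812 FPKM, in NC replicate 3.

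Among genes of matrix and secreted proteins, Has1 (ENSMUSG00000003665), a hyaluronan synthase, was at 34.7 FPKM in HBOT replicate 2. The other libraries had 0.0636 and 0.0492 FPKM in HBOT, 0.143, 0.0799 and 0.0660 FPKM in CTX and 0.0464, 0.0732 and 0.0214 FPKM in NC. Its level was above that of Has2, the synthase known for cumulus expansion in mice, at 3.43 FPKM against at most 0.201 FPKM, and of Has3, at 1.51 FPKM against 0.850 to 1.42 FPKM. Serpinb2, the plasminogen activator inhibitor 2, was at 12.3 FPKM in HBOT replicate 2 and listed at 0 in all the others but NC replicate 2, at 0.0231 FPKM. That made it the gene with the largest ratio to the highest other library, 533. Its target proteases were among the higher genes of that library too: Plau, urokinase, was at 535 FPKM against 29.3 to 53.2 FPKM, and Plat, tissue plasminogen activator, at 86.0 FPKM against 11.9 to 28.9 FPKM.

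Esm1, an endothelial proteoglycan, was at 4.38 FPKM against at most 0.967 FPKM. Serpina1c, an alpha 1 antitrypsin gene, was at 3.50 FPKM against at most 0.952 FPKM. It has near-identical copies between which the division of reads is uncertain, and of these Serpina1a was at 4.08 FPKM against 0.375 to 1.55 FPKM and Serpina1b at 2.68 FPKM against 0.716 to 2.51 FPKM.

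A group of 5 genes known from barrier epithelia was also present. Tchhl1, of the trichohyalin-like family, was at 45.2 FPKM in HBOT replicate 2, at 0.118 and 0.311 FPKM in HBOT replicates 1 and 3, at 0.221, 0.0297 and 0.163 FPKM in CTX and at 0.227, 0.0223 and 0.338 FPKM in NC. The keratin Krt23 was at 27.4 FPKM against at most 0.282 FPKM, and the transglutaminase Tgm1, which crosslinks proteins of the skin envelope, at 11.9 against at most 0.232 FPKM. The tight junction protein claudin 2 (Cldn2) was at 5.56 FPKM and the cadherin Cdh17 at 3.44 FPKM. Markers of the ovarian surface epithelium were not above the other libraries: all 9 lay within their range, and their sum was 121 FPKM against 64.2 to 137 FPKM. The 12 oviduct markers summed to 11.9 FPKM against 10.5 to 22.0 FPKM.

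Metabolic genes numbered 5. Slc7a11, which exchanges cystine for glutamate, was at 13.8 FPKM against 0.384 to 0.819 FPKM, and its heavy chain Slc3a2, which is not among the 53, at 369 FPKM against 136 to 206 FPKM. The NAD synthesis enzyme Nmnat2 was at 8.54 FPKM against at most 0.306 FPKM, the arginine deiminase Padi4 at 3.30 against at most 0.355 FPKM and the lipid droplet protein Cideb at 3.29 against at most 0.283 FPKM. Of the remaining 4 genes, Ly6m of the Ly6 family stood out at 99.9 FPKM in HBOT replicate 2, second to Nts. Its other HBOT libraries were at 0.0152 and 0 FPKM, its CTX libraries at 0.0137, 0.0655 and 0.0118 FPKM and its NC libraries at 0.0401, 0.0286 and 0.252 FPKM. L1td1 was at 9.37 FPKM and Medag at 4.46 FPKM, and Pxdc1 lay between them, with at most 0.845 FPKM elsewhere.

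Over all 53 genes the summed level was 780 FPKM in HBOT replicate 2, 0.194% of its total, and 11.6 to 15.5 FPKM in the other libraries. The median gene was at 6.95 FPKM, against medians of 0.105 to 0.236 FPKM. Levels of 10 FPKM or more were reached by 19 genes, 5 to 10 FPKM by 12 and under 5 FPKM by 22. Of the 52 genes with a value above 0 elsewhere, the ratio to the highest other library had a median of 23.2 and ran from 3.55 (P2ry2) to 533 (Serpinb2). The word expressed needs care at this level, since 35 of the 53 genes had a value above 0 in all other 8 libraries. In 34 genes the highest of these was under 0.5 FPKM and in 19 under 0.25 FPKM. Of the same 52 genes, the highest other library was an HBOT library for 11, a CTX library for 16 and an NC library for 25. These counts were uneven within groups. They were 6 and 5 for HBOT replicates 1 and 3, 4, 11 and 1 for CTX replicates 1, 2 and 3, and 1, 11 and 13 for NC replicates 1, 2 and 3.

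Genes at the edge of the limits differed little from those beyond it. Just inside 3 FPKM were P2ry2, Prkg2, Zdbf2, Scin and Cideb (3.04 to 3.29 FPKM), and just under it Pakap (2.92 FPKM), Tll1 (2.92 FPKM), Tnfsf15 (2.72 FPKM), Rnd1 (2.72 FPKM) and Liph (2.60 FPKM). Gal, Esm1, Gprc5a, Serpina1c and Ccl11 had highest other values of 0.939 to 0.988 FPKM. Rprm (1.01 FPKM), Pcdh9 (1.02 FPKM), Rgs16 (1.09 FPKM), Egr3 (1.14 FPKM) and Cpne7 (1.15 FPKM) were just over that limit. A similar pattern from a higher base, with at least 10 times the highest of the other 8 libraries, was found for 20 named genes. Egr3 and Cpne7 were among these, as was Tnfaip6, which was left out by name. The 20 were led by the aldo-keto reductase Akr1b7, at 571 FPKM against at most 3.74 FPKM, the hyaluronan-binding protein Tnfaip6, at 188 against at most 1.65 FPKM, Adcyap1, the aggrecanase Adamts4, at 60.2 against at most 1.85 FPKM, and the cholesterol 25-hydroxylase Ch25h, at 60.8 against at most 2.30 FPKM.

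Some of the 53 genes lie next to each other in GENCODE M21. Calca and Calcb are neighbours on chromosome 7, and so are Ripply1 and Cldn2 on chromosome X. On chromosome 14, Cideb, Ltb4r2 and Ltb4r1 follow each other, with Tgm1 at a distance of 3 table genes. On chromosome 15, Adgrb1 and Arc are separated by Mroh4, which was listed at 0 in all 9 libraries. In the chromosome 14 run the genes in between were higher as well, but from a base of many FPKM: Rabggta was at 21.8 FPKM in HBOT replicate 2 against 13.0 to 17.2 FPKM, Dhrs1 at 67.7 against 19.3 to 26.2 FPKM and Nop9 at 30.7 against 8.43 to 9.80 FPKM. Tinf2, on the far side of Tgm1, was at 128 FPKM against 17.4 to 20.5 FPKM. Next to Cldn2, Morc4 was at 21.3 FPKM against 1.61 to 2.68 FPKM, and next to Ripply1, Tbc1d8b was at 5.81 FPKM against 3.37 to 5.04 FPKM. Cideb and Nop9 overlap on opposite strands, as do Fosl1 and Ccdc85b and also Esm1 and Gzmk. The use of strand in counting is not stated, so reads of these pairs may not have been told apart. Sv2c overlaps Btf3l4b on the same strand, which was at 9.90 FPKM in HBOT replicate 2 and at most 13.2 FPKM elsewhere. Serpinb2 likewise overlaps Serpinb10, at 0.0147 and at most 0.0759 FPKM.

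The name ovulatory was set beside lists of genes of that response. These were chosen with earlier results of these data known, so their counts are no independent check of the name. The lists hold 144 genes, of which 124 reached 1 FPKM in some library. Of the 102 that are neither among the 53 nor left out by name, 32 were at 2 times the highest of the other 8 or more, where 3.37% of all rows were. Counted the same way, cumulus matrix genes gave 5 of 5, EGF-related genes 3 of 8, proteases and inhibitors 5 of 12 and cytokines 4 of 12. The progesterone receptor list gave 1 of 10, the prostaglandin list 1 of 7 and genes known to fall after the surge 0 of 14. Of the cumulus matrix genes, Ugdh, which makes the sugar precursor of hyaluronan, was at 192 FPKM against 23.5 to 32.1 FPKM. Vcan, the versican core protein, was at 84.9 against 10.7 to 18.0 FPKM. Among EGF-related genes Errfi1, a feedback inhibitor of the receptor, was at 179 FPKM against 8.21 to 16.2 FPKM. For proteases and inhibitors, Adamts9 was at 104 FPKM against 8.17 to 22.6 FPKM and Adamts1, a versican-cleaving protease, at 39.0 against 5.07 to 22.3 FPKM. The prostaglandin receptor Ptger4 was at 9.92 FPKM against 1.19 to 2.76 FPKM, and the cytokine Il33 at 6.42 FPKM against 1.11 to 2.59 FPKM. Hpgd, also of the prostaglandin list, was below all other libraries, at 13.5 FPKM against 18.4 to 39.2 FPKM. Edn2, an endothelin known from the time of follicle rupture in rodents, went against the pattern, at 1.05 FPKM against 0.218 to 2.46 FPKM.

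Of 14 genes known to fall after the surge, 7 were below all other libraries in HBOT replicate 2, where 42.6% of all rows were, and 1 was at most 0.5 times the lowest, where 6.45% were. That gene was the inhibin subunit Inhbb, at 13.2 FPKM against 48.2 to 247 FPKM. Fshr, the follicle-stimulating hormone receptor, was at 6.78 FPKM against 9.68 to 23.7 FPKM, and Nppc, the peptide that holds the oocyte in meiosis, at 4.44 FPKM against 4.93 to 22.9 FPKM. The list also held 2 genes above all other libraries, the inhibin and activin subunit Inhba, at 126 FPKM against 15.5 to 79.1 FPKM, and the cyclin Ccnd2, at 46.0 FPKM against 23.1 to 39.7 FPKM. The share of genes below all others was thus near that of the whole table.

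**Figure D3:**
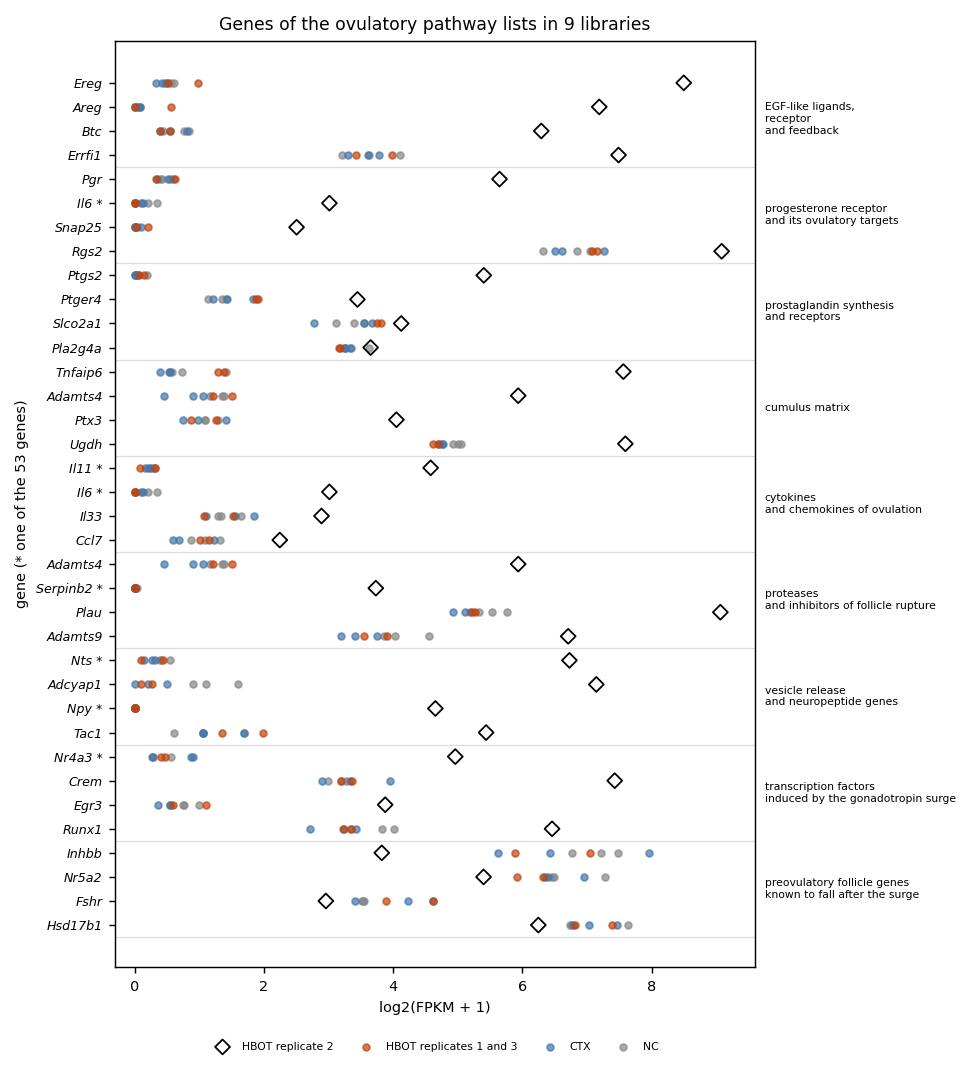
Levels as log2(FPKM + 1) of up to 4 genes per pathway list that reach 1 FPKM somewhere, those with the largest gap between HBOT replicate 2 and the highest of the other 8, or in the last list those farthest below the lowest. Open diamonds are HBOT replicate 2 and dots the other libraries by group; asterisks mark genes of the 53. The diamonds lie right of all dots except in the last list, where they lie left, as for Inhbb at 13.2 FPKM.

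In a limma fit of the 3 groups with Benjamini-Hochberg adjustment, 0 of 13338 genes (0%) passed an adjusted p of 0.05 in HBOT against CTX, where the smallest adjusted p was 0.180, and 0 (0%) in HBOT against NC, where it was 0.235. Unadjusted p-values under 0.05 were found for 812 and 1584 genes. The fit keeps genes with at least 1 FPKM in 3 libraries, which 0 of the 53 genes have. Of the 144 listed genes 97 were fitted, and 0 were called in either comparison. The replicates of a group are not stated to be separate animals, so these p-values measure the spread between samples, and the spread of the HBOT group includes HBOT replicate 2. With HBOT replicate 2 left out, the limma fit of 13254 genes also called 0 in each comparison. The smallest adjusted p was then 0.135 in HBOT against CTX and 0.129 in HBOT against NC.

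For the secreted products 26 receptors were looked up, a list made after the levels of the 53 genes were seen. Of these 12 reached 1 FPKM in some library. In HBOT replicate 2, 2 of the 12 were at 2 times the highest of the other 8 or more, where 3.37% of all rows were. Above all of the other 8 were 3, where 20.1% of all rows were, and below all of them 5, where 42.6% were. The neuropeptide Y receptor Npy1r was at 10.4 FPKM in HBOT replicate 2, at 1.15 and 2.23 FPKM in the other HBOT libraries, at 1.67, 1.31 and 1.64 FPKM in CTX and at 0.748, 2.14 and 1.34 FPKM in NC. The BDNF receptor Ntrk2 was at 8.45 FPKM in HBOT replicate 2, at 1.62 and 1.27 FPKM in the other HBOT libraries, at 1.85, 1.16 and 1.49 FPKM in CTX and at 1.16, 1.46 and 1.66 FPKM in NC. For both receptors the 8 other libraries overlapped across the groups. Ngfr, the low-affinity neurotrophin receptor, was lower in HBOT replicate 2, at 0.905 FPKM against 2.79 to 5.53 FPKM. The neurotensin receptors Ntsr1 and Ntsr2 and the neuromedin U receptors Nmur1 and Nmur2 were under 0.12 FPKM in all 9 libraries, while the sorting receptor Sort1, which also binds neurotensin, was at 3.57 FPKM and 4.13 to 5.94 FPKM. Il11ra1, the interleukin 11 receptor, was at 11.4 FPKM against 15.2 to 34.5 FPKM, and the shared signal transducer Il6st at 43.0 FPKM against 23.6 to 31.0 FPKM.

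Markers of other cells were mostly within the range of the other libraries, with liver and oocyte lists above it and adipocyte and mast cell lists below it. The neuron and glia list given above was just under the lowest of them. Their part in the result was not tested. Neutrophil markers summed to 31.0 FPKM, within 2.25 to 45.5 FPKM, and macrophage markers to 104 FPKM, within 79.3 to 145 FPKM. Lymphocyte markers were at 6.94 FPKM, within 2.08 to 12.1 FPKM, and muscle markers at 2.98 FPKM, within 2.68 to 5.45 FPKM. Markers of pancreas and gut summed to 13.9 FPKM, within 13.8 to 36.1 FPKM. Liver markers were above the rest (73.7 against 20.6 to 67.3 FPKM), 69.5 FPKM of it from Apoa1, with Alb listed at 0. Adipocyte markers were below the rest (13.1 against 52.6 to 133 FPKM). The markers below all other libraries were Plin4, at 1.68 FPKM against 7.399 to 114 FPKM, and Plin1, at 0.698 against 6.86 to 23.9 FPKM. Retn gave 10.2 FPKM of the sum and was above all other libraries. Adipoq and Cidec were listed at 0 in HBOT replicate 2 and above 0 in CTX replicate 1 alone. Mast cell markers were also below the rest (4.38 against 13.3 to 23.4 FPKM), all of it from Kit, a gene that oocytes share. Oocyte markers summed to 322 FPKM against 122 to 295 FPKM. Granulosa markers summed to 2322 FPKM, within 1410 to 2529 FPKM, and theca and luteal markers to 5945 FPKM, within 4670 to 11743 FPKM. These sums hide differences between markers. Inha gave 1703 FPKM of the granulosa sum, while 4 of the 8 granulosa markers were below all other libraries and 1 above. Of the 8 theca and luteal markers 1 was below all others and 1 above, Star, at 1877 FPKM against 58.1 to 544 FPKM.

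Promoters of the 53 genes included a larger share with the AP-1 motif than those of the table at large. The motif TGANTCA, on either strand, was found for 12 of 37 genes (32.4%): Bdnf, Cideb, Il11, Il6, Nmu, Nts, Olr1, Padi4, Ripply1, Serpina1c, Serpinb2 and Tchhl1. It was found for 7.92% of 15715 genes of the table with a window, for 11.3% of the genes under 1 FPKM in all 9 libraries, and for 15.7% of 286 genes neither among the 53 nor left out by name that were at 2 times the highest of the other 8 or more. With genes of a single window the shares were 30.0% of 30 and 6.71% of 13027. In the windows printed above the match begins 207 bases before the start for Nts, 98 for Il11, 94 for Serpinb2 and 59 for Ripply1. Over all windows of the table of promoters, 7.81% held it.

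Other motifs were nearer to the table. The full cAMP response element TGACGTCA was found for 2 of 37 genes (5.41%), Has1, at 83 bases before the start, and Zdbf2, against 2.76% of the table, and its core TGACG, which it contains, for 13 (35.1%) against 28.2%. The core of the progesterone receptor element, ACANNNTGT, was found for 5 (13.5%: Bdkrb2, Bdnf, Ltb4r1, Nts and Zdbf2) against 6.51%, and the TATA box TATAAA for 9 (24.3%) against 13.1%. The SP1 motif GGGCGG was found for 17 (45.9%) against 53.8%. Shares differed among the genes under 1 FPKM in all 9 libraries. There they were 1.32% for the full cAMP response element, 15.6% for its core and 9.03% for the progesterone receptor core. The TATA box was at 21.7% and SP1 at 24.9%. A match is a run of letters in a window and not a bound site. Genes with several windows, such as Bdnf, had more chances of a match.

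**Figure D4:**
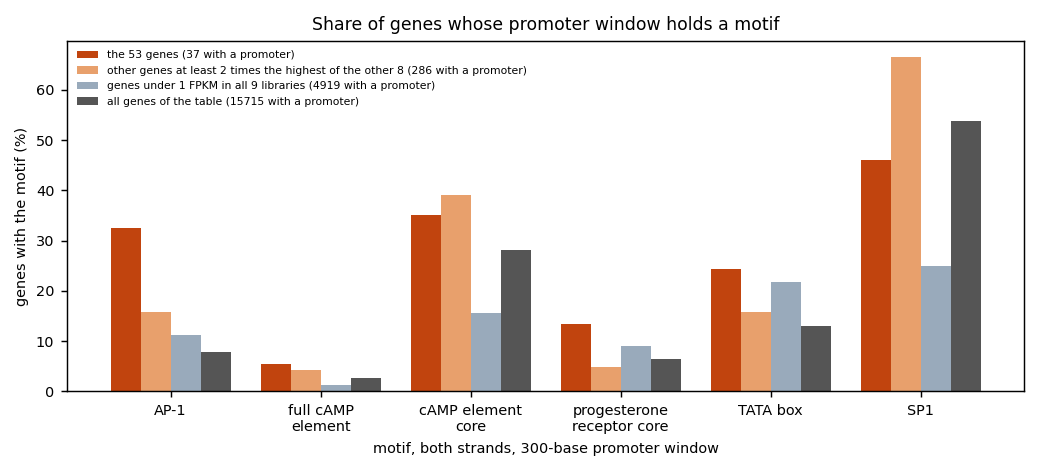
Share of genes (y axis, in percent) whose promoter window of 300 bases holds each motif (x axis) on either strand, for the 53 genes, for other genes at least 2 times the highest of the other 8 libraries in HBOT replicate 2, for genes under 1 FPKM throughout and for all genes of the table. For AP-1 the 4 shares are 32.4%, 15.7%, 11.3% and 7.92%.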

How the data were processed

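RNA-seq covered 9 ovary libraries. Per the labels' protocols, RNA was extracted with TRIzol, selected with oligo(dT) beads and made into libraries with the VAHTS mRNA-seq v3 kit. The submitters' processing notes list fastp 0.23.4 and the build GRCm39, or mm39. No source used here names an aligner, a counter, an annotation or a strand setting. Values come as 1 table of FPKM made and deposited by the authors, whose 9 columns were matched to samples by the names in the descriptions.

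From these FPKM values the 53 genes were taken by the 2 limits. The members and the gene lists were chosen with earlier results of these data known. Named genes follow a rule written with the lists: the 40 highest genes, those in a list, those next to a limit and up to 4 genes a list with the largest gap, with other members named where they share a family, a chromosome cluster or a role with these. Partner receptors, roles and the genes of the neighbourhoods were added after the values were seen. Values outside HBOT replicate 2 are given by library or by their range.

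The fit used limma 3.58.1 in R 4.3.3 on log2(FPKM + 1) of all 9 libraries, with at least 1 FPKM in 3 libraries, eBayes with trend and Benjamini-Hochberg adjustment over all 13338 genes. In a test on simulated data of 13338 genes, 93% of 200 genes changed by 2 log2 units were recovered in each comparison. False calls numbered 14 in HBOT against CTX and 10 in HBOT against NC. The changed genes were drawn from those with a mean above 3 on that log2 scale. They were shifted equally in all 3 HBOT libraries, with independent normal noise of each gene's own spread. A change in 1 HBOT library alone was not simulated, so the 93% does not cover it. Alternatives were other limits, TPM and median-of-ratios scaling, pseudocount 0.1, other filters, replicate number as a block and each library left out. Promoter windows are those of RefSeq on GRCm38.p6, matched by symbol, and gene order was read from GENCODE M21 (GRCm38) by Ensembl ID. Coordinates are printed for the promoter windows alone. Figures were drawn with matplotlib 3.10.9 in Python 3.11.15. Values of a few genes, 2 of the 53 among them, are not reported here.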

Additional observations from a re-analysis of the deposited data

How the results depend on the processing

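The number of named genes found, 53, was 31 with a lower limit of 5 FPKM, 34 with an upper limit of 0.5 FPKM in the other libraries and 92 with an upper limit of 2 FPKM. It was 69 with a lower limit of 2 FPKM, 54 after rescaling to TPM, 58 with median-of-ratios scaling and 61 with assembled loci and predicted genes kept. Leaving out 1 of the other 8 libraries gave 53 to 57, the highest without HBOT replicate 1. Without HBOT replicate 2 the limits have no library to apply to, and no value could be given.

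The count of genes called by limma, 0 in both comparisons, stayed 0 with a pseudocount of 0.1, TPM or median-of-ratios scaling and a filter of 1 FPKM in 1 library. Without a filter it was 1 in each comparison, the assembled locus MSTRG.25118.1. Leaving out 1 library gave 0 to 1 in HBOT against CTX (Kcnk3 without CTX replicate 1, MSTRG.28856.1 without CTX replicate 2 and MSTRG.24116.10 without NC replicate 3). In HBOT against NC it gave 0 to 3 (B3gnt2, Commd1b and Qpct without HBOT replicate 3, Rpl26 without NC replicate 1 and Mndal without NC replicate 3). None of these is among the 53 genes or in a pathway list, and the cause was not tested. These genes were named after their values were seen. With replicate number as a block the count was 0 and 0. The numbers are not stated to pair the samples, and the correlations of same-numbered deviations ran from -0.287 to 0.156. Of 18 library and group pairs, each with 3 libraries to match, 12 matched their own number best. Each correlation enters the 18 in both directions, so they are not independent. Whether the numbers pair the samples was not tested.

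Depth is unknown, so how far values under 1 FPKM can be told from 0 cannot be given, and with 1 library above the limits no spread can be set on its values.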
